A study of Mus musculus with 30 samples.

Results

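Genes of megakaryocytes and platelets were followed through the stroma of bone, lung and brain: Pf4, Ppbp, Itga2b, Gp1bb, Gp9, Gp5, Gp6, Treml1 and Clec1b. They were taken by symbol from a table of 43346 mouse gene IDs, and all 9 were found, so the set is 9 of 43346. Megakaryocytes are the large polyploid cells that shed platelets, and they live mainly in bone marrow and also in the lung. Platelets carry no nucleus but keep part of the RNA of the megakaryocyte, so their transcripts can reach a sorted cell suspension with cells they stick to. The genes fall into secreted chemokines (Pf4, Ppbp), the integrin αIIb chain (Itga2b), the von Willebrand factor receptor subunits (Gp1bb, Gp9, Gp5), the collagen receptor Gp6, the podoplanin receptor Clec1b and the granule membrane receptor Treml1.

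The study sequenced RNA of mouse stromal cells, sorted as the GFP-negative fraction, from organs colonised by GFP-LUC labelled circulating tumour cell (CTC) lines and from mice without tumours. The exposed mice were female NSG, an immunodeficient strain that lacks mature T, B and natural killer cells but keeps myeloid cells and platelets; they were 6 to 8 weeks old, carried slow-release estrogen pellets and received 100000 CTCs into the left ventricle of the heart. Exposed bone had 13 libraries (2 with line Brx07, 4 with Brx50, 7 with Brx68) against 3 controls, exposed lung had 7 (2 with Brx07, 1 with Brx42, 3 with Brx50, 1 with Brx68) against 2 controls, and exposed brain had 3 (all Brx50) against 2 controls. The 2 Brx07 bone libraries are titled as leg (library 1) and skull (library 2) and carry the same code, so they may come from 1 mouse; they were counted as separate libraries. Each library started from the RNA of 50000 sorted cells. The labels do not say whether control mice carried estrogen pellets. Some codes recur across tissues within a line, so that libraries of different tissues may share an animal. The contrasts over all 30 libraries treated these as independent. Within a tissue, only the 2 Brx07 bone libraries share both line and code. Control titles carry no such code, so controls may also share an animal, and the spread behind a p-value may be partly technical.

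Library totals ran from 4289012 to 15646947 counts, and 14769 to 25688 genes had at least 1 count. The lowest number of genes was in exposed bone library 7, followed by exposed bone library 12 (16256) and exposed brain library 1 (16344). Summed markers of bone and marrow ranged from 1356 to 1985 CPM (read counts scaled to the library total) in control bone but from 21.6 to 2657 CPM in exposed bone, and lung markers from 1799 to 2269 CPM in control lung but from 120 to 3849 CPM in exposed lung. Lung markers in bone did not exceed 5.73 CPM. Brain markers summed to 1376 and 1736 CPM in control brain and 745 to 1146 CPM in exposed brain, and they reached 199.97 CPM in exposed bone library 2, the one from skull. They were 90.8, 42.2, 37.9 and 28.2 CPM in exposed bone libraries 5, 4, 9 and 6. The other exposed bone libraries had at most 4.96 CPM and control bone at most 3.61 CPM. All 9 genes together gave between 39 and 1404 counts per library, which limits how small a difference could be seen; 3 counts correspond to 0.192 to 0.699 CPM, depending on the library.

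Upstream sequences of 3 genes are shown, because Gp9 and Gp5 encode subunits of one receptor and had like levels in bone and lung, whereas Clec1b had different ones. They hold the 250 bases before the RefSeq gene start (build GRCm38.p6), 5′ to 3′ on the gene's strand, with capitals for the motif GATAA or its reverse complement TTATC (read by GATA factors) and for AGGAAG or its reverse complement CTTCCT (read by ETS factors). Gp9 lies at chr6:87777820-87778069, plus strand, Gp5 at chr16:30310782-30311031, minus strand and Clec1b at chr6:129397047-129397296, plus strand.
Gp9: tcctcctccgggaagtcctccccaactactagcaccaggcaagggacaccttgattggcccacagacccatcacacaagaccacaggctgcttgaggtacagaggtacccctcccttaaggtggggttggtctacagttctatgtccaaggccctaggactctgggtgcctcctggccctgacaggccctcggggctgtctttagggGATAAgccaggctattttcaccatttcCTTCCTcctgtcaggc
Gp5: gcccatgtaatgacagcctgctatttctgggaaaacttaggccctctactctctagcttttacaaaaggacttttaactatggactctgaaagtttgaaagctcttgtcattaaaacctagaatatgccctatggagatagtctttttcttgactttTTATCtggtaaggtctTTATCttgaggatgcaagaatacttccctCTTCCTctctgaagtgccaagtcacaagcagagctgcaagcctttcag
Clec1b: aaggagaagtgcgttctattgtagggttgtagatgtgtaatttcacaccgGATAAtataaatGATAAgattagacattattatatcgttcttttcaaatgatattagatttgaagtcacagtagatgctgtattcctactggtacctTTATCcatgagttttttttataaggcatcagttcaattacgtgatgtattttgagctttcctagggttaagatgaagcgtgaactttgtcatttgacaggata
Gp9 has 1 GATA and 1 ETS match, Gp5 has 2 GATA and 1 ETS match, and Clec1b has 3 GATA matches and no ETS match. Over the 9 genes, 4 windows held the GATA motif (Gp9, Clec1b, Gp6, Gp5) and 4 the ETS motif (Pf4, Gp9, Itga2b, Gp5). Among all 32851 promoter windows of that length, 22.6% held the GATA motif, 29.5% the ETS motif and 6.58% both; both were present in Gp9 and Gp5. The RUNX motif TGTGGT or its reverse complement was found in 1 of the 9 windows (Gp9) and in 14.05% of all windows. The motif TGAGTCA or its reverse complement (NF-E2 and AP-1) was in none of the 9 and in 4.46% of all. A match is a description of the letters only.

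How high each gene stood in tumour-free stroma was compared per length, as counts per kilobase of exon scaled to a common library total, like TPM. Length was the union of a gene's annotated exons, 721 bases for Pf4, 5103 for Clec1b and 5900 for Gp6. Ranks between genes therefore depend on the annotation. In control bone, Pf4, a chemokine of platelet α-granules, had the highest mean (17.7 ± 9.7, SD, n = 3). Itga2b, the α chain of the fibrinogen receptor, followed at 17.1 ± 3.9 per kilobase, and the ranges of these top 2 genes overlapped. Pf4 was the higher of the 2 only in control library 1 (28.3 against 21.2). Itga2b was the higher in libraries 2 (13.4 against 9.21) and 3 (16.5 against 15.7). Gp9 was next (9.80 ± 2.23), below every Itga2b value but overlapping Pf4. Gp5 (3.25 ± 1.26), Ppbp (2.63 ± 0.58), Treml1 (2.40 ± 1.60) and Clec1b (1.88 ± 0.55) formed an overlapping run below Gp9. Gp6, which encodes the collagen receptor chain of platelets, stood at 0.103 ± 0.058 and Gp1bb was at 0 in all 3 control bone libraries.

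In control lung Pf4 again had the highest mean per length (13.7 ± 0.96, n = 2), ahead of Clec1b (11.6 ± 2.5), Gp9 (11.4 ± 1.0) and Itga2b (8.72 ± 0.52). The ranges of Pf4, Clec1b and Gp9 overlapped at their neighbours. Clec1b thus took a place in lung, beside Pf4 and Gp9, that it did not have in bone. In control brain no gene exceeded 3.25 on this scale, the highest being Itga2b (2.56 ± 0.99, n = 2).

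**Figure D1:**
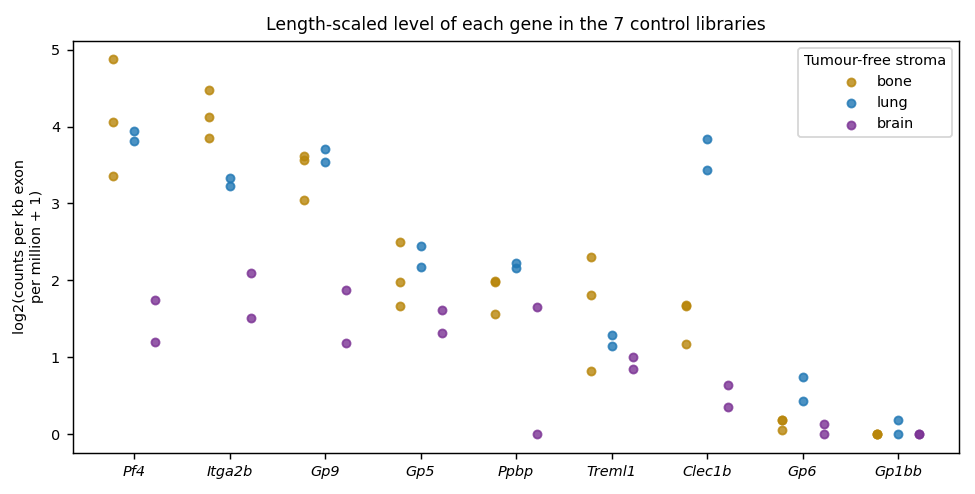
Length-scaled level, log2 of the scaled counts per kilobase of exon plus 1, of the 9 genes (horizontal axis) in the 7 tumour-free libraries, 1 point per library, coloured by tissue. Clec1b is the gene whose lung points stand far above its bone points, and brain points are lowest for Pf4, Itga2b, Gp9 and Clec1b.

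The tissue comparison within tumour-free stroma separated 2 of 7 tested members between bone and lung and 6 of 7 between either of them and brain. Itga2b was 41.9, 26.0 and 31.0 CPM in control bone and 15.6 and 14.7 CPM in control lung, with every bone value above both lung values. The edgeR quasi-likelihood test put it 2.13-fold higher in bone (log2 1.09, SE 0.22, adjusted p = 0.00126). Clec1b, the receptor for podoplanin, read 2.31, 3.95 and 3.89 CPM in control bone and 15.8 and 21.9 CPM in control lung. It was 5.71-fold higher in lung (log2 -2.51 for bone over lung, SE 0.26, adjusted p = 7.36e-06). Among all 18859 genes tested in this comparison 44.8% were called (22.5% higher and 22.3% lower in bone), so 2 of 7 is not above the background.

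Clec1b has a limit of its own. Part of its annotated exons lies within the span of the Clec9a gene on the same strand. Clec9a, a receptor of dendritic cells, was also higher in lung: 40.3 and 52.1 CPM in control lung against 5.00, 3.95 and 4.63 CPM in control bone. The part of any reads shared by Clec1b and Clec9a in the Clec1b difference was not tested. The endothelial markers were higher in lung too, with a summed level of 5189 to 6243 CPM against 1462 to 1774 CPM in bone, and 7 of 7 tested passed; only Cldn5, listed at 0 in every library of both, was left out.

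Against brain, control bone was higher for Pf4, Itga2b, Gp9, Gp5, Treml1 and Clec1b, and control lung for Pf4, Ppbp, Itga2b, Gp9, Gp5 and Clec1b. Pf4 was 7.39, 2.35 and 3.89 CPM in control bone, 2.96 and 3.35 CPM in control lung and 0.478 and 0.267 CPM (3 and 2 counts) in control brain. Its bone over brain ratio was 13.4-fold (log2 3.75, SE 0.66, adjusted p = 0.000217, edgeR quasi-likelihood). Gp9, which completes the von Willebrand factor receptor, had 3.46, 2.26 and 3.42 CPM in control bone and 0.319 and 0.666 CPM in control brain, a 6.52-fold difference (adjusted p = 0.000216). Gp9 did not separate bone from lung, where it read 2.96 and 3.44 CPM (log2 -0.10, SE 0.32, adjusted p = 0.845). In bone against brain 75.8% of all genes were called and 37% were called higher; in lung against brain 72% were called and 34.6% were called higher. The share of members called was thus near that of all genes, and all 6 calls of each contrast were higher than in brain.

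Treml1 in bone over brain (adjusted p = 0.0468) and Ppbp in lung over brain (adjusted p = 0.0443) lay just inside the threshold. Ppbp was 0 and 5 counts in the control brain libraries, and its bone over brain difference missed the threshold (log2 1.58, SE 0.76, adjusted p = 0.0778). Leaving out single libraries ended some calls by edgeR. Gp5 in bone over brain was lost without bone control 1 (adjusted p = 0.0601), brain control 1 (0.0516) or brain control 2 (0.130), and in lung over brain without brain control 2 (0.104) or lung control 2 (0.0674). Treml1 in bone over brain was lost without brain control 1 (0.187) or 2 (0.157), and Ppbp in lung over brain without brain control 1 (0.245), lung control 1 (0.115) or lung control 2 (0.0933). Without bone control 1 or 3, Treml1 fell below the count filter and was not tested. Without brain control 2, Ppbp passed in bone over brain (0.0103), and without lung control 2, Gp6 passed as lower in bone than in lung (log2 -2.58, 0.0416). In lung over brain, 6 members passed without brain control 1 and 5 without lung control 2. Each of these counts includes a member not called in the main fit.

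Other tools and scalings ended some of the same calls: in bone over brain, 5 members passed with RLE or upper quartile scaling and 4 with DESeq2, without Treml1 in each and without Gp5 in the last. In lung over brain, 5 passed with upper quartile scaling or DESeq2, without Ppbp.

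When the same contrasts were read from a fit of all 30 libraries, with the wider spread of the exposed libraries pooled in, 0 of 8 members passed for bone against lung. In that fit 2 passed for bone against brain (Pf4, adjusted p = 0.0399, and Itga2b, 0.00255) and 2 for lung against brain (Itga2b, 0.0398, and Clec1b, 0.0223). Fewer cells of a type and less RNA per cell cannot be told apart in these bulk libraries.

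Exposed bone was compared with control bone to see whether tumour growth went with another level of platelet transcripts. No member passed (0 of 7 tested, 0 at unadjusted p under 0.05), and 0% of 18278 genes were called by the edgeR quasi-likelihood test, with 458 at unadjusted p under 0.05. DESeq2 called 17 genes, none of them a member. All 7 fitted differences lay below 0, with a median of -0.45 (log2) against 0.08 over all genes tested. Gp1bb and Gp6 were too low to test.

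The level of the chemokines differed more between exposed bone libraries than between the groups. Pf4 ran from 0 to 14.6 CPM (median 2.40) in exposed bone, against 2.35 to 7.39 CPM in the controls, so the exposed range enclosed the control range. Its fitted change was log2 -0.14 (SE 0.91, adjusted p = 0.990). The 2 highest Pf4 levels were in exposed libraries 9 (14.6 CPM) and 12 (11.2 CPM). These 2 also had the highest summed tissue macrophage markers (1084 and 863 CPM), among them Mrc1 (299 and 205 CPM) and Cd163 (105 and 71.4 CPM). Their summed monocyte and macrophage markers were 2967 and 1478 CPM, inside the 303 to 7023 CPM of exposed bone. The part of macrophages in the Pf4 level was not tested. In exposed library 12, Gp9, Gp5, Gp6, Treml1 and Clec1b were all at 0 counts beside 79 counts of Pf4. Ppbp, a neutrophil-attracting chemokine of the same granules, was 0 to 2.69 CPM (median 0.343) in exposed bone and 0.770 to 1.13 CPM in the controls; 4 exposed libraries lay above all controls and 9 below.

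Itga2b was detected in all 30 libraries and made up 37.9% to 82.5% of the summed CPM of the 9 genes in the bone libraries. In exposed bone it ran from 8.62 to 94.9 CPM with a median of 19.4, and in controls from 26.0 to 41.9 CPM. Of the 13 exposed libraries, 9 fell below every control and 1, exposed library 6, stood above. The fitted difference was log2 -0.45 (SE 0.52, adjusted p = 0.970). Its partner Itgb3, the β3 integrin chain, averaged 61.0 CPM in exposed bone and 78.3 CPM in controls and did not pass.

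The receptor subunits showed the same wide spread. Gp9 ran from 0 to 5.25 CPM in exposed bone (median 1.27) against 2.26 to 3.46 CPM in the controls, and 8 of 13 exposed libraries lay below all controls. Gp5, a subunit of the same receptor that thrombin cleaves, ran from 0 to 4.91 CPM (median 1.20) against 1.69 to 3.70 CPM. Exposed library 7 had 0 counts of Gp9 but 32 counts of Gp5. Gp6 was detected by at most 16 counts in a bone library and Gp1bb by none.

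Clec1b and Treml1 had the lowest fitted values in exposed bone. Clec1b ran from 0 to 6.51 CPM (median 1.64) against 2.31 to 3.95 CPM in the controls, with 9 of 13 exposed libraries below all controls and 1 above. Its edgeR difference was log2 -0.86 (SE 0.87, adjusted p = 0.970), while limma-voom with quality weights gave -1.32 (adjusted p = 0.0438) and called 2844 genes in all. Treml1, a receptor that megakaryocytes and platelets hold in α-granules, ran from 0 to 2.23 CPM (median 0.343) against 0.376 to 2.00 CPM (log2 -1.04, SE 1.13, adjusted p = 0.970).

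**Figure D2:**
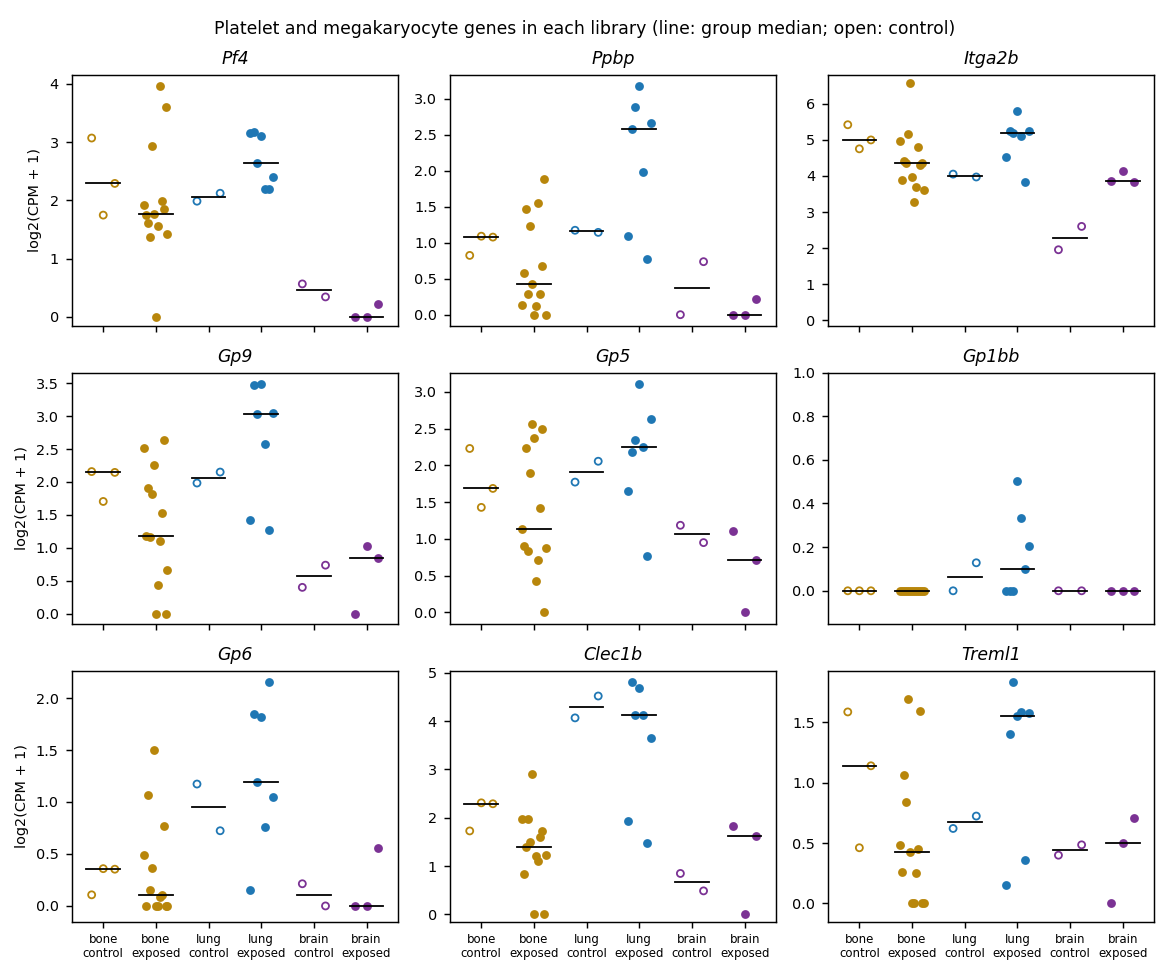
Level of each gene, log2(CPM + 1), in every library (points), by tissue and exposure (horizontal axis); open points are tumour-free controls and lines are group medians. Exposed bone points enclose the bone control points for 8 of the 9 genes, Gp1bb being at 0 in all bone libraries, and the exposed lung points of Pf4 all lie above both lung controls.

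Marrow cells also differed between bone libraries. In exposed bone, 5 libraries (1, 4, 5, 10 and 11) had summed neutrophil markers of 19182 to 53945 CPM, against 30151 to 39154 CPM in the controls, and the other 8 had 4.11 to 2326 CPM. Summed erythroid markers reached 4513 CPM in exposed library 1 and 10510 CPM in exposed library 11, against 434 to 1018 CPM in controls. In exposed library 11, Pf4 stayed at 2.62 CPM, within the control range, while Gp9 was 5.25 CPM. The part of marrow content in the member levels was not tested. Without exposed libraries 7 and 12, which had the fewest genes detected, 0 of 7 members passed and all 7 fitted differences were still below 0 (median -0.42).

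In exposed lung the fitted differences lay mostly above 0, also without passing the test. No member was called (0 of 8 tested, 1 at unadjusted p under 0.05), 0% of 17132 genes were called by the edgeR quasi-likelihood test, 118 had an unadjusted p under 0.05, DESeq2 called 3 genes and limma-voom 1, none of them a member. The fitted difference was above 0 for 7 of the 8 (median log2 0.92, against 0.08 over all genes), and Clec1b was the exception. Only Gp1bb was too low to test.

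Itga2b was 13.3 to 54.6 CPM (median 35.9) in exposed lung and 15.6 and 14.7 CPM in the controls. It was higher than both controls in 6 of 7 exposed libraries (log2 1.17, SE 0.41, unadjusted p = 0.0179, adjusted p = 1.00 by edgeR). Pf4 was 3.57 to 8.02 CPM (median 5.21) against 2.96 and 3.35 CPM. All 7 exposed libraries lay above both controls for Pf4, which held for 1.02% of genes tested (log2 0.90, SE 0.41, adjusted p = 1.00). No other member had groups that did not overlap in lung. Ppbp was 0.706 to 8.04 CPM (median 4.95) against 1.25 and 1.21 CPM, above both controls in 5 of 7 (log2 1.78, SE 0.85, adjusted p = 1.00).

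Among the receptor subunits, Gp9 was 1.41 to 10.2 CPM (median 7.21) in exposed lung against 2.96 and 3.44 CPM, above both controls in 5 of 7 libraries. Gp5 was 0.706 to 7.62 CPM (median 3.74) against 2.42 and 3.16 CPM, also above both in 5 of 7. Their fitted differences were log2 0.94 (SE 0.71) and 0.49 (SE 0.65), each with adjusted p = 1.00 by edgeR. Gp1bb, whose exons partly overlap those of Sept5 on the same strand, reached at most 5 counts in any library and was at 0 in 25 of 30. Reads of Gp1bb and Sept5 may not be separable, so its near absence from the counts says little of its RNA.

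Treml1 was 0.113 to 2.57 CPM (median 1.93) in exposed lung against 0.538 and 0.651 CPM. Gp6 was 0.113 to 3.46 CPM (median 1.29) against 1.25 and 0.651 CPM, and its highest value was in exposed library 6. Clec1b was 1.76 to 27.0 CPM (median 16.4) against 15.8 and 21.9 CPM (log2 -0.39, SE 0.79, adjusted p = 1.00).

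Exposed lung libraries 1 and 6 stood apart. Each was among the lowest 2 of the 7 exposed libraries for 7 of the 8 detected genes, Gp1bb left out, and Clec1b was 2.82 and 1.76 CPM there against 11.6 to 27.0 CPM in the other 5. Their summed endothelial markers were 1268 and 176 CPM, against 5099 to 6923 CPM in the other exposed libraries and 5189 to 6243 CPM in the controls. Their summed lung markers were also the lowest, 120 and 375 CPM. The part of this composition in the member levels was not tested.

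Without these 2 libraries, a setting chosen after the data were seen, the edgeR test still called 0 of 8 members and 0 genes, with 590 genes at unadjusted p under 0.05. Each of these 2 libraries had been among the lowest 2 for 7 of 8 members, so leaving them out raises the fits by selection. All 8 fitted differences were then above 0 (median log2 1.09, against 0.03 over all genes). Itga2b was at log2 1.40 (SE 0.21, adjusted p = 0.951), Ppbp at 2.17 (SE 0.43, adjusted p = 0.983), Treml1 at 1.78 (SE 0.40) and Gp9 at 1.32 (SE 0.32). Clec1b was at 0.03 (SE 0.31).

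**Figure D3:**
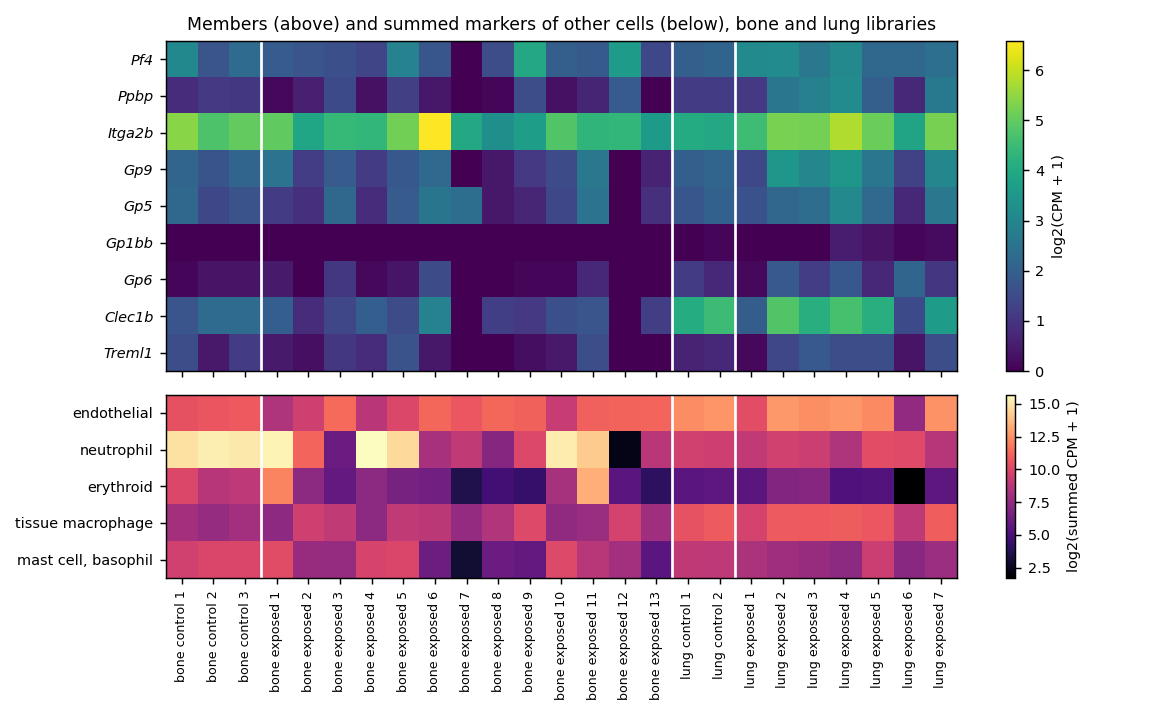
Heat map of the 9 genes (upper panel, log2(CPM + 1)) and of summed markers of 5 other cell classes (lower panel, log2(summed CPM + 1)) in the 25 bone and lung libraries (columns); white lines divide the groups. Exposed lung libraries 1 and 6 are dark for Clec1b and Gp9 and low for endothelial markers, and exposed bone libraries 7 and 12 are at 0 for several members.

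In brain the members were scarce, and Itga2b was the one that could be followed. It was 2.87 and 5.06 CPM in control brain (18 and 38 counts) and 13.5, 16.7 and 13.3 CPM in exposed brain (58, 162 and 84 counts), so the groups did not overlap, as for 19.9% of the 16734 genes tested that lay higher in all exposed libraries. The edgeR quasi-likelihood difference was log2 1.81 (SE 0.46, unadjusted p = 0.00615, adjusted p = 0.254), and 0 of 2 tested members passed, beside 1 gene in all (0.00598%) and 2272 genes at unadjusted p under 0.05. DESeq2 (log2 1.79, adjusted p = 0.0285) and limma-voom (1.77, adjusted p = 0.0303) called Itga2b, among 715 and 845 genes. Without exposed library 2 the difference was 1.73 (adjusted p = 0.258).

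Summed markers of other cells did not all go the same way, and no gene tested on the lists below passed by edgeR. Haematopoietic progenitor markers summed to 272 to 288 CPM in exposed brain against 359 and 356 CPM in controls. Summed monocyte and macrophage markers were 1510 to 3576 CPM in exposed brain against 405 and 655 CPM in controls, and neutrophil markers 25.2 to 3729 CPM against 17.9 and 17.7 CPM, the highest in exposed library 2. That library also had summed bone and marrow markers of 194 CPM, against 0.797 and 0.133 CPM in controls. This list shares Mpo and Elane with the neutrophil markers. Erythroid markers summed to 371 CPM there, 43.4 and 36.7 CPM in exposed libraries 1 and 3, and 50.9 and 153 CPM in controls. Mast cell and basophil markers were 15.9 to 110 CPM against 5.26 and 11.2 CPM, with Fcer1a at 0 in all 5 brain libraries. Their part in the Itga2b level was not tested. Clec1b was 2.56, 0 and 2.06 CPM in exposed brain against 0.797 and 0.400 CPM (log2 1.29, SE 1.91, adjusted p = 0.811). The other 7 members were not tested; Pf4 gave 0, 0 and 1 counts in exposed brain and 3 and 2 counts in control brain, and Gp1bb gave none.

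**Figure D4:**
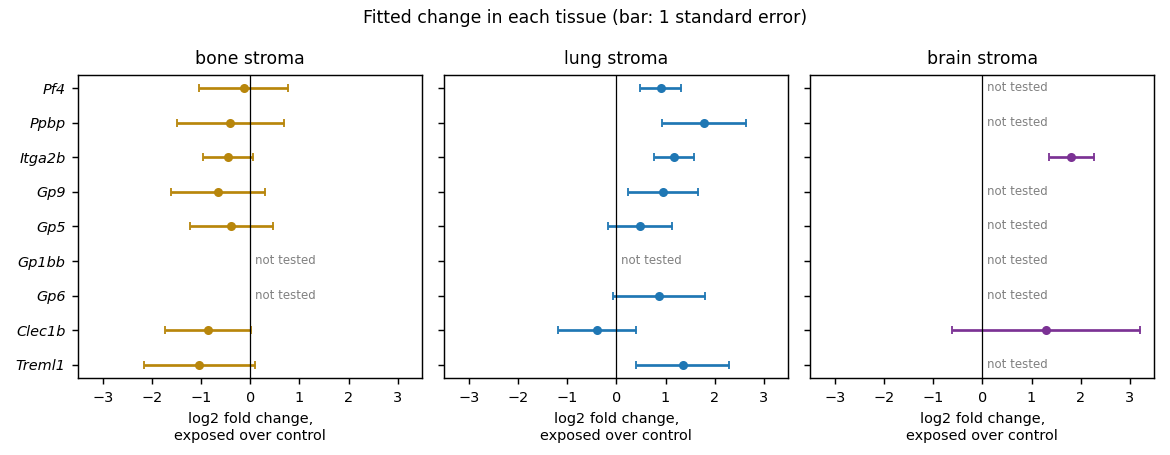
Fitted log2 fold change of exposed over control stroma (horizontal axis) for each gene in bone, lung and brain, with bars of 1 standard error. Points lie below 0 for all 7 tested genes in bone and above 0 for 7 of 8 in lung, and none passed the edgeR threshold.

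Whether the change differed between tissues was tested directly over all 30 libraries. For bone minus lung, 0 of 8 members and 0% of 21233 genes passed the edgeR quasi-likelihood test (1 member and 237 genes at unadjusted p under 0.05), with all 8 fitted differences below 0. Itga2b had the smallest p (log2 -1.62, SE 0.75, unadjusted p = 0.0399, adjusted p = 1.00). DESeq2 called 0 members there, and limma-voom called 2, Itga2b (-2.09, adjusted p = 0.00441) and Gp9 (-2.36, adjusted p = 0.0444), among 317 genes.

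For bone minus brain, 0 of 8 members and 0% of genes passed by edgeR (1 member and 1771 genes at unadjusted p under 0.05). Itga2b was at log2 -2.22 (SE 0.83, adjusted p = 0.566), DESeq2 called 0 members, and limma-voom called Itga2b alone of the 8 (-2.53, adjusted p = 0.0171). For lung minus brain, 0 of 8 members and 0% of genes passed (0 members and 838 genes at unadjusted p under 0.05), and neither DESeq2 nor limma-voom called a member. Pf4 was at log2 3.53 (SE 1.91, adjusted p = 1.00) in that contrast, resting on 1 count in the exposed brain.

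Between CTC lines no member differed past the threshold. In bone, Itga2b was 8.62 to 26.8 CPM in the 7 Brx68 libraries (median 14.7) and 19.5, 20.2, 35.0 and 94.9 CPM in the 4 Brx50 libraries, ranges that overlapped. It was lower with Brx68 by edgeR at the unadjusted level only (log2 -1.27, SE 0.42, unadjusted p = 0.00838, adjusted p = 0.632). Of the members, 0 of 8 passed and 1 had an unadjusted p under 0.05, beside 0% of 19211 genes called and 1344 at unadjusted p under 0.05; DESeq2 and limma-voom called 0 members. Gp6 was at log2 -2.52 (SE 1.18, adjusted p = 0.713).

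In lung, Brx50 (3 libraries) against Brx07 (2 libraries) gave 0 of 8 members (0 at unadjusted p under 0.05) and 0% of 18422 genes by edgeR, with 2006 genes at unadjusted p under 0.05. DESeq2 and limma-voom called 0 members. Pf4 was 7.62, 3.57 and 3.599 CPM with Brx50 and 7.89 and 8.02 CPM with Brx07, where both Brx07 values were above all Brx50 values (log2 -0.67, SE 0.43, adjusted p = 0.561). The 2 lung libraries low in endothelial markers fell 1 in each of these lines.

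Genes whose level followed the members most closely were listed for description. Over the 9 lung libraries, Npy (Pearson r = 0.976), Cd226 (0.953), Ptpn11 (0.939), Ttl (0.936) and Alox12 (0.935) had the highest correlation with the mean log2(CPM + 1) of the 9 members, among 13893 genes. Cd226, an adhesion receptor of platelets and lymphocytes, was 0.789 to 9.05 CPM, and Alox12, the platelet 12-lipoxygenase, was 0.565 to 5.70 CPM. D5Ertd579e, Gpr146, Arhgap40, Otud6b and Dclk3 completed the 10. These points share library composition, including the 2 lung libraries low in endothelial markers.

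Over the 16 bone libraries, the 10 closest of 14773 genes included Arhgap27os3 (r = 0.828), Tctex1d4 (0.825), Aanat (0.822) and Ptger1 (0.821), and also Ttc7b, Arap3, Robo3, Dennd4b and Pgghg. None of these 9 named genes is on the platelet lists used here, and the highest r was below all 10 in lung, where the number of libraries was smaller.

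The wider platelet programme was read from 5 further lists, given as counts beside the members. In exposed against control stroma no gene of these 42 passed by edgeR: of 40 tested in bone 3 had an unadjusted p under 0.05 (smallest adjusted p = 0.970), of 39 in lung 0 (1.00), and of 30 in brain 16 (0.210). Over all genes, these counts were 458 of 18278 in bone, 118 of 17132 in lung and 2272 of 16734 in brain. Directions differed between the lists. In bone, 6 of 8 megakaryocyte transcription factor genes had a fitted value above 0 (median log2 0.18). Below 0 in bone were 6 of 10 other surface receptors and 5 of 8 granule and secreted proteins. In lung, 9 of 10 surface receptors, 6 of 8 granule and secreted proteins and 3 of 7 transcription factors lay above 0. In brain, 4 of 6 surface receptors, 7 of 7 granule and secreted proteins and 5 of 6 transcription factors lay above 0. Of the 12 genes for platelet cytoskeleton, lipid mediators and signalling, 11 lay below 0 in bone (median -0.99) and 8 in lung (median -0.11). Of the 10 of them tested in brain, 8 lay above 0 (median 1.48). These genes are not restricted to platelets: Plek, which encodes pleckstrin, averaged 982 CPM in control lung, and it is also expressed by other blood cells. Tubb1, the platelet β1-tubulin, averaged 12.4 CPM in exposed lung and 5.71 CPM in control lung, again without passing.

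Between tumour-free tissues many genes of these lists passed, as did many genes of the whole table. In bone over brain, 8 of 8 megakaryocyte transcription factor genes were higher, among them Nfe2 (199.6 CPM on average in bone, 0.572 CPM in brain). Of the 10 tested other surface receptors 8 were higher, of the 8 granule and secreted proteins 7 were higher and 1 lower (Serpine2), and of the 12 cytoskeleton and signalling genes 11 were higher and 1 lower (Rab27b). Over all genes 37% were higher and 38.9% lower in that contrast. In lung over brain the same lists gave 6 of 8, 7 of 10, 7 of 8 and 10 of 12 higher, and 0, 1, 1 and 2 lower, against 34.6% higher and 37.4% lower over all genes. Thpo, which encodes thrombopoietin, was lower in bone over brain and in lung over brain. In bone over lung they gave 5 of 8, 6 of 10, 4 of 8 and 4 of 12 higher, and 0, 2, 2 and 4 lower, against 22.5% higher and 22.3% lower over all genes. Gata1 and Nfe2 on this list are also genes of erythroid, mast and other myeloid cells. Summed erythroid markers stood at 434 to 1018 CPM in control bone, 46.1 to 50.0 CPM in control lung and 50.9 to 153 CPM in control brain.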

How the data were processed

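The values are raw read counts per gene, deposited by the authors as a single table of 30 libraries and 43346 mouse gene IDs; the submitters' processing notes list STAR 2.5.2b and HTSeq and, with no roles, 4 builds (mm10, GRCm38.p5, hg19, GRCh37), while the counting mode and strand setting were not stated. Symbols, exon lengths and overlaps came from GENCODE M21 (GRCm38), upstream sequences from RefSeq. CPM is the count scaled to the library total. Tests used edgeR 4.0.16 (quasi-likelihood, robust, TMM scaling, filterByExpr) in R 4.3.3, with Benjamini-Hochberg adjustment over all genes tested and a threshold of 0.05. Tissue levels were tested in a fit of the 7 controls, exposure within each tissue, and differences of change over all 30 libraries. The alternatives were DESeq2 1.42.0, limma-voom with quality weights (limma 3.58.1), other scaling, no filter, a replicate block, a fit of all libraries, and leaving out each library. The fitting was tested on simulated data with large changes in genes of higher level than most members. That test does not bear on low members or small differences. No pair of libraries within a group agreed within sampling noise (smallest chi-square per degree of freedom 9.64). Only genes named by a stated rule are given: all members, and of other lists those past the threshold or of highest level, with further examples chosen after their values were seen; genes of like pattern are the 10 with the highest correlation among those with a mean of at least 1 CPM. The members and gene lists were chosen with earlier results of these data known. Brain control titles and descriptions number the libraries differently; the titles were used. Values of 2 genes outside the 9 members are not reported here.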

Additional observations from a re-analysis of the deposited data

How the results depend on the processing

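Depth limits the low members: Gp1bb could not be tested in any exposure contrast after the filter, Gp6 not in bone or brain, and in brain 7 of 9 members not. No member was called for exposed against control in bone, lung or brain by edgeR under any scaling, filter, left-out library or fit of all 30 libraries. Limma-voom called 1 member in bone, 1 in brain, 2 for bone minus lung and 1 for bone minus brain, and DESeq2 called 1 in brain. The fit of all 30 libraries left 0 members for bone against lung and 2 each for bone against brain and lung against brain. Leaving out 1 control library gave 2 to 3, 4 to 6 and 5 to 6 members in these contrasts. For bone against brain, RLE, upper quartile and limma-voom gave 5 members and DESeq2 4; for lung against brain, upper quartile and DESeq2 gave 5 and the unfiltered fit 7; for bone against lung the unfiltered fit gave 3. A replicate block on the control libraries, by title number, gave 2, 5 and 6. Deviations of same-numbered controls correlated at -0.057 (bone and brain), 0.034 (bone and lung) and -0.027 (brain and lung). With 2 libraries per tissue and only the title numbers used, these values cannot show whether controls share an animal. For genes that did not pass, leaving out 1 library changed the sign: exposed bone Pf4 ranged from -0.53 to 0.40 (above 0 without bone control 1), and bone over lung Pf4 from -0.036 to 0.802, Gp9 from -0.190 to 0.061 and Gp5 from -0.526 to 0.053. Lung Clec1b moved to 0.030 without exposed libraries 1 and 6. For all genes, leaving out brain exposed library 1 raised the brain calls from 1 to 69, and leaving out lung exposed library 2 raised those of Brx50 against Brx07 to 120. The cause was not tested.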
